A study of Mus musculus with 15 samples.

Results

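The genes described here encode 9 receptors through which circulating cytokines, hormones and growth factors act on the liver: *Prlr*, *Lifr*, *Lepr*, *Il6ra*, *Egfr*, *Insr*, *Met*, *Gcgr* and *Il1rap*. They were chosen by name, as the rows of the count table with these symbols, and make up 9 of its 55573 genes. All 9 passed the filter on low counts that left 17655 genes for testing. RNA was measured in whole livers of 15 mice aged 8 weeks, 1 library a mouse: 3 WT and 5 ESR1KO females, 3 WT and 4 ESR1KO males. All mice came from the strain B6N(Cg)-Esr1tm4.2Ksk/J, and the ESR1KO mice were homozygous for an *Esr1* allele without exon 3, bred from heterozygous parents. *Esr1* encodes oestrogen receptor alpha. The deletion is present in the whole animal and, as the study describes, raises testosterone in both sexes, so a difference in the liver of these mice cannot be told apart into an effect within the liver and an effect through circulating hormones.

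Of these receptors, PRLR (for prolactin), LIFR (leukaemia inhibitory factor), LEPR (leptin) and IL6RA (interleukin 6) belong to the class I cytokine receptor family. They lack kinase activity and signal through Janus kinases bound to the receptor complex, which phosphorylate STAT proteins. LIFR and IL6RA need the shared chain gp130, encoded by *Il6st*, and SOCS proteins and CISH act as feedback inhibitors of the pathway. EGFR, INSR and MET are receptor tyrosine kinases, for epidermal growth factor and its relatives, for insulin and for hepatocyte growth factor, and they act in liver regeneration and in the control of glucose and lipid metabolism. GCGR, the glucagon receptor, is a G protein-coupled receptor that raises cyclic AMP in hepatocytes during fasting. IL1RAP is the accessory chain that IL1R1 needs to signal in response to interleukin 1. Several of these genes also make short or soluble forms, which counts per gene do not separate.

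Promoter sequence is shown for the receptors with the largest called differences between groups, *Prlr*, *Egfr* and *Lifr*. RefSeq start sites (GRCm38.p6) gave 12 windows of 250 bases upstream for 8 of the 9 receptors, with no entry for *Insr*. The motifs searched were TTCNNNGAA, the spaced palindrome bound by STAT5, GGTCANNNTGACC, the full palindrome of an oestrogen response element, and GGTCA, its core, which lies within every full palindrome. The palindromes read the same on both strands, and the core was also sought as TGACC. The STAT5 letters were in 7.02% of 32851 windows of the same length and in 1 receptor window, the second *Prlr* start. The full palindrome was in 0.06% of windows and in 0 of the 12. The core was in 35.2% of windows and in 3 of the 12, 2 of *Lifr* and 1 of *Egfr*. Capitals mark the matches in the windows below, which run 5′ to 3′ on the plus strand. The *Prlr* and *Lifr* windows shown belong to the second start of each gene and lie inside the annotated gene. They hold the most matches of the windows of their gene. Of the windows not shown, *Prlr* starts 1 and 3 held 0 matches to any motif and *Lifr* start 1 held 1 match to the core. The *Egfr* window lies just upstream of its gene. The match in *Prlr* begins 110 bases before the start site, those in the *Lifr* window 187 and 101 bases before it, and those in the *Egfr* window 192 and 115 bases before it.
Prlr, chr15:10223656-10223905: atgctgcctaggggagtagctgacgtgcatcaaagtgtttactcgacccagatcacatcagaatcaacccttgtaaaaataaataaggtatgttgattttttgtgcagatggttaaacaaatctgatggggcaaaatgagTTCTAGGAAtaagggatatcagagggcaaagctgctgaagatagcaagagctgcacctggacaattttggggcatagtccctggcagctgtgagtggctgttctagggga
Lifr, chr15:7140292-7140541: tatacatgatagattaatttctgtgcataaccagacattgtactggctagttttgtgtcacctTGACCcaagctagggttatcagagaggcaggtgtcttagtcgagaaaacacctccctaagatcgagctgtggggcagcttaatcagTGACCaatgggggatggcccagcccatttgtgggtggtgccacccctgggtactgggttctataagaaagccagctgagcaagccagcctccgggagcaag
Egfr, chr11:16751953-16752202: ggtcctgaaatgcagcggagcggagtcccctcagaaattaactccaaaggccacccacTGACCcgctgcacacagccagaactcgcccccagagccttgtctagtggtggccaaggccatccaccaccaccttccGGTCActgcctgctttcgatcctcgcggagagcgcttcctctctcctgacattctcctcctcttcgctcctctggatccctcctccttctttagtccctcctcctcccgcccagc

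Total counts lay between 27799061 and 78624766 per mouse. *Esr1* RNA, counted over every exon and not exon 3 alone, was lower in every ESR1KO mouse (8.22 to 19.7 CPM, counts scaled to library size with TMM factors) than in every WT mouse (25.0 to 88.2 CPM). Hepatocyte markers summed to between 77120 and 110400 CPM, lowest in WT males (77120 to 78990), and no marker of any cell type was at 0 in a library. The sums were 299.3 to 465.1 CPM for endothelial cells, 310.5 to 494.3 for Kupffer cells and macrophages, 474.0 to 726.7 for stellate cells and fibroblasts, 32.5 to 59.6 for cholangiocytes and 20.1 to 36.7 for lymphocytes. ESR1KO females 1 and 2 stood apart from the other libraries. In these libraries the 85 ribosomal protein genes summed to 13590.0 and 13180.0 CPM against 8854 to 11810.0 in the other libraries, mitochondrial genes took 11.2% and 7.40% of counts against 1.97% to 6.10%, and the nuclear RNA *Neat1* was at 518 and 373 CPM against 1399 to 3836. Receptor results whose call differs without them are given both ways, and so are the counts of calls in each gene list. In whole liver, fewer cells of a type and less RNA per cell cannot be told apart.

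Calls among the 9 receptors are given for each contrast of sex or genotype, with the shares over all genes in the next paragraph. Between WT females and WT males, *Prlr* was higher in females and *Egfr* lower. In females, ESR1KO mice had less *Prlr* and *Il6ra* and more *Il1rap* than WT mice, and in males they had less *Lifr*. *Insr*, *Met*, *Gcgr* and *Lepr* were not called in any contrast. All calls are at an adjusted p under 0.05 by the quasi-likelihood test of edgeR, adjusted by Benjamini-Hochberg across the 17655 genes in 1 model of all 15 libraries, and unless stated otherwise the adjusted p values below come from this test.

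Read against all genes tested, 1 of 9 receptors was higher in WT females than in WT males, where 2.67% of genes were, and 1 was lower, where 2.20% were. In ESR1KO females against WT females, 1 of 9 was higher (3.14% of all genes) and 2 were lower (2.57%). In ESR1KO males against WT males, 0 were higher (0.833%) and 1 was lower (0.583%). Between ESR1KO females and ESR1KO males edgeR called 0 receptors, where it called 0.159% of genes higher and 0.113% lower; 5 receptors had an unadjusted p under 0.05 and DESeq2 called 1, *Prlr*, beside 3092 and 456 genes in all. For the female minus the male genotype effect, edgeR called 0 receptors, where 1.02% of genes were higher and 0.923% lower; 4 had an unadjusted p under 0.05 and DESeq2 called 2, *Prlr* and *Il1rap*, beside 2520 and 594 genes in all. The median log2 fold change over the 9 receptors was -0.043 for WT females minus WT males, -0.22 for ESR1KO minus WT in females and -0.041 in males, beside medians of 0.014, -0.0013 and -0.0011 over all genes tested.

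Counts by other means are to be read beside the same counts over all genes. At an unadjusted p under 0.05 there were 3060 of 17655 genes between WT sexes, 3092 between ESR1KO sexes, 3973 between genotypes in females, 2099 between genotypes in males and 2520 for the female minus the male effect. DESeq2 called 1225, 456, 1546, 499 and 594 genes in the same order. EdgeR called 860, 48, 1008, 250 and 343 genes, and 1574, 30, 782, 477 and 418 when ESR1KO females 1 and 2 were left out. Over all genes, counts in that setting thus rose between WT sexes, between genotypes in males and for the female minus the male effect.

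**Figure D1:**
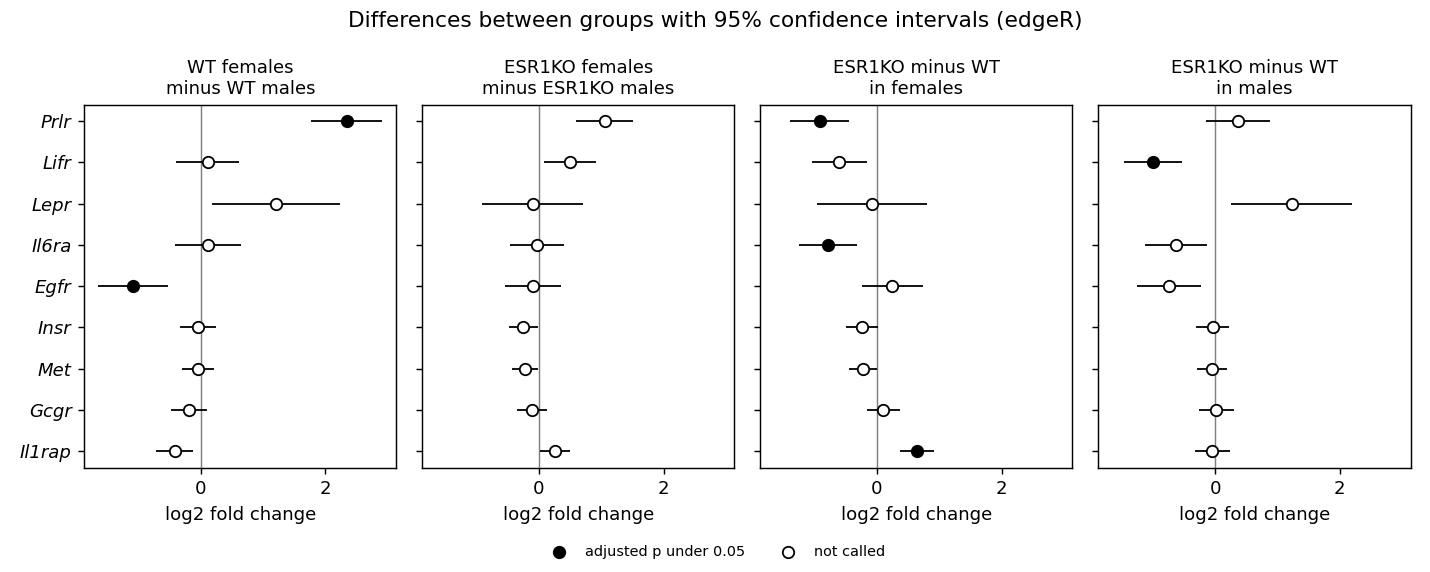
Each panel plots the log2 fold change of the 9 receptors (points) with its 95% confidence interval (lines) in 1 contrast of the edgeR model. Filled points are the calls: *Prlr* at 2.34 and *Egfr* at -1.09 between WT sexes, *Prlr* at -0.92, *Il6ra* at -0.78 and *Il1rap* at 0.64 between genotypes in females, and *Lifr* at -1.002 between genotypes in males.

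*Prlr* (ENSMUSG00000005268, chr15:10177238-10349180, plus strand) had the largest difference between the sexes. It stood at 364, 285 and 291 CPM in WT females and at 47.5, 48.5 and 89.1 CPM in WT males. ESR1KO females had 235, 148, 147, 118 and 180.1 CPM and ESR1KO males 97.9, 87.0, 70.2 and 64.5 CPM. All females of a genotype lay above all males of that genotype, every ESR1KO female lay below every WT female, and the males of both genotypes overlapped. WT females thus had 5.07 times the level of WT males (log2 fold change 2.34, SE 0.268, adjusted p = 2.15e-05), and this call was kept in each of 15 fits without 1 library. In ESR1KO females the level was 166 ± 44.5 CPM (SD, n = 5) against 313 ± 43.9 (SD, n = 3) in WT females, 1.89-fold lower (log2 fold change -0.92, SE 0.224, adjusted p = 0.0253). This call ended without WT female 1, 2 or 3 or without ESR1KO female 2, with adjusted p values of 0.114, 0.0550, 0.0668 and 0.0603.

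The remaining difference between ESR1KO females and males was 2.08-fold, with 5 of 5 females above 4 of 4 males, and was not called by edgeR (log2 fold change 1.05, SE 0.215, adjusted p = 0.0512; 0.000414 with DESeq2). It was not called in 12 of 15 fits without 1 library (adjusted p up to 0.171). Without ESR1KO females 1 and 2 the log2 fold change was 0.89 (adjusted p = 0.147). ESR1KO females also exceeded WT males by 2.68-fold (log2 fold change 1.42, SE 0.242, adjusted p = 0.00313), where edgeR called 1.38% of genes higher and 1.23% lower. In males the genotype difference was 0.37 (95% CI -0.14 to 0.88, adjusted p = 0.612), and it ranged from 0.21 without WT male 1 to 0.73 without WT male 3, called in neither case. The female minus the male genotype effect was -1.29 (SE 0.331) and was not called by edgeR (adjusted p = 0.0602), but it was by DESeq2 (0.00727) and by edgeR without ESR1KO females 1 and 2 (0.0321), without ESR1KO female 1 (0.0165) or without WT male 3 (0.00835). The other 13 of 15 edgeR fits without 1 library did not call it (adjusted p up to 0.183). In order of mean level, WT females were followed by ESR1KO females, ESR1KO males and WT males. The ESR1KO groups missed the threshold as neighbours in this order, and the male groups overlapped. *Prlr* shares 203 exon bases with *Gm21973* on the same strand, whose counts came to 0.0591% of those of *Prlr*.

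**Figure D2:**
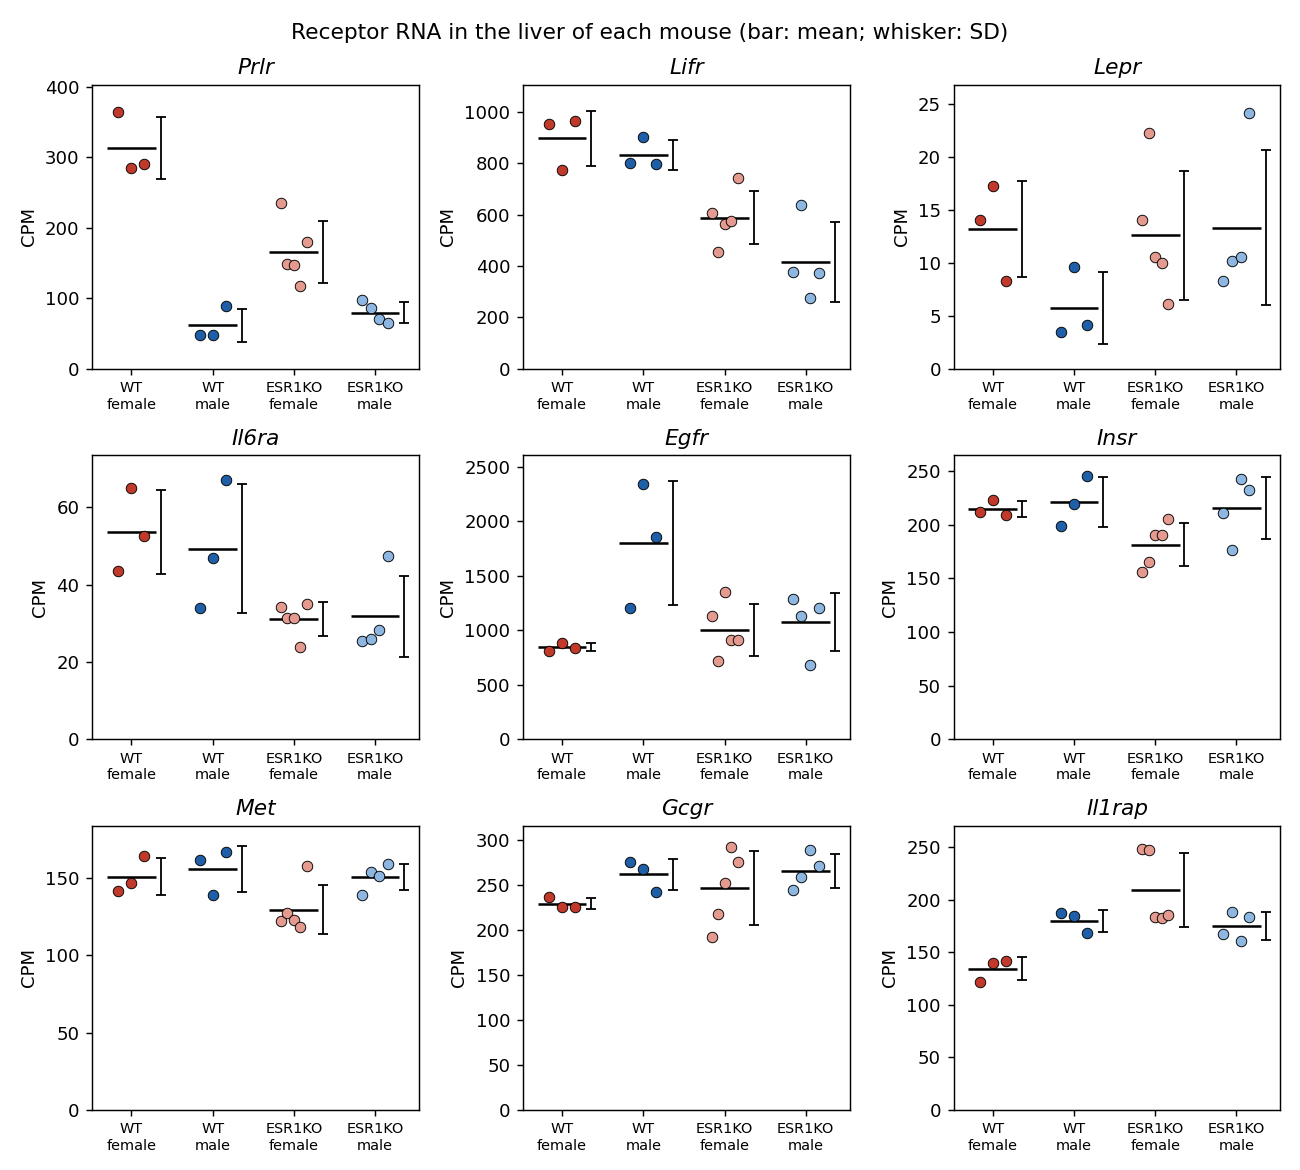
Each panel plots the level of 1 receptor in CPM (linear axis from 0) by group, with a point for each mouse, a bar at the group mean and a whisker of 1 SD beside it. *Prlr* separates WT females (285 to 364 CPM) from WT males (47.5 to 89.1 CPM), *Lifr* is at most 743 CPM in ESR1KO mice and at least 772 CPM in WT mice, and *Met* lies between 118 and 167 CPM throughout.

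*Lifr* (ENSMUSG00000054263, chr15:7090614-7197489, plus strand) was lower in ESR1KO than in WT males. WT females had 954, 772 and 965 CPM and WT males 801, 901 and 796 CPM. ESR1KO females had 608, 455, 563, 575 and 743 CPM and ESR1KO males 377, 639.7, 274 and 373 CPM. Every ESR1KO mouse of either sex was below every WT mouse, and the sexes overlapped within each genotype. In males the mean went from 833 ± 59.2 CPM (SD, n = 3) in WT to 416 ± 157 (SD, n = 4) in ESR1KO mice, a 2.002-fold difference (log2 fold change -1.002, SE 0.220, adjusted p = 0.0298). In females the difference was 1.52-fold and was not called (log2 fold change -0.61, SE 0.208, adjusted p = 0.0967; 0.0494 with DESeq2). It was called in 1 of 15 edgeR fits without 1 library, and without ESR1KO females 1 and 2 it was -0.52 (adjusted p = 0.235). The effects in the 2 sexes were not shown to differ (females minus males 0.39, 95% CI -0.25 to 1.04, adjusted p = 0.572). The call in males ended without WT male 1, 2 or 3 (adjusted p = 0.0801, 0.114 and 0.0930), without ESR1KO male 1, 3 or 4 (0.103, 0.0827 and 0.0861) and when only the males were fitted (0.0585).

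*Il6ra* (ENSMUSG00000027947, chr3:89864059-89913196, minus strand), the ligand-binding chain for interleukin 6 that works with gp130, was lower in ESR1KO than in WT females. It stood at 43.4, 65.0 and 52.5 CPM in WT females and at 33.9, 46.9 and 67.0 CPM in WT males. ESR1KO females had 34.1, 31.3, 31.3, 23.9 and 35.04 CPM and ESR1KO males 25.5, 26.0, 28.3 and 47.4 CPM. All 5 ESR1KO females were below all 3 WT females, while the males of both genotypes overlapped, with ESR1KO male 4 above WT males 1 and 2. The difference in females was 1.72-fold (log2 fold change -0.78, SE 0.221, adjusted p = 0.0479), and that in males was -0.63 (95% CI -1.12 to -0.13, adjusted p = 0.254; -0.34 without WT male 3 and -0.89 without ESR1KO male 4, neither called). The call in females was close to the threshold: it was lost in 11 of 15 fits without 1 library, without WT female 1, 2 or 3 (0.0626, 0.202 and 0.137), ESR1KO female 1, 2, 3 or 4 (0.0590, 0.0897, 0.0603 and 0.0853), ESR1KO male 1, 2 or 3 (0.0526, 0.0501 and 0.0576) or WT male 2 (0.0618). Without both ESR1KO females 1 and 2 the log2 fold change was -0.83 (adjusted p = 0.0987).

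*Lepr* (ENSMUSG00000057722, chr4:101717404-101815352, plus strand) was the least abundant of the receptors per kb of exon in each group. WT females had 14.04, 17.2 and 8.32 CPM and WT males 3.46, 9.63 and 4.15 CPM. ESR1KO females had 14.1, 22.3, 10.5, 10.004 and 6.10 CPM and ESR1KO males 8.31, 10.2, 10.5 and 24.2 CPM. WT males had the lowest mean, but WT male 2 lay within the range of every other group. The log2 fold change was 1.21 for WT females minus WT males (95% CI 0.19 to 2.23, adjusted p = 0.196) and 1.23 for ESR1KO minus WT males (95% CI 0.26 to 2.20, adjusted p = 0.258), and neither was called. *Leprot*, a gene next to *Lepr* that shares no exon bases with it in the annotation used, lay at 12.4 to 17.4 CPM over all libraries, and neither it nor its relative *Leprotl1* was called in any contrast by edgeR or DESeq2 (at most 1 of the 2 at an unadjusted p under 0.05).

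Among the receptor tyrosine kinases, *Egfr* (ENSMUSG00000020122, chr11:16752203-16918158, plus strand) was the receptor with higher levels in WT males. WT females had 813, 887 and 839 CPM and WT males 1201, 2341 and 1859 CPM. ESR1KO females had 1130.2, 719.7, 1349, 915 and 912 CPM and ESR1KO males 1284, 1132, 684 and 1206 CPM. Every WT male was above every WT female, and the ESR1KO sexes overlapped each other and both WT groups. The WT sex difference was 2.13-fold (log2 fold change -1.09, SE 0.263, adjusted p = 0.0211), with means of 1801 ± 572 CPM in males and 846 ± 37.3 in females (SD, n = 3 each). Between ESR1KO females and males it was -0.099 (95% CI -0.55 to 0.35, adjusted p = 0.830), and the change of the sex difference with genotype, 0.99 (SE 0.338), was not called (adjusted p = 0.194). The WT sex call ended without WT female 1, 2 or 3 (adjusted p = 0.0805, 0.0645 and 0.0810) or without WT male 2 or 3 (0.119 and 0.0547).

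*Insr* (ENSMUSG00000005534, chr8:3122061-3279617, minus strand) and *Met* (ENSMUSG00000009376, chr6:17463800-17573980, plus strand) were not called in any contrast. *Insr* stood at 212, 223 and 209 CPM in WT females, 199, 219 and 245 in WT males, 156, 166, 191, 191 and 205 in ESR1KO females and 211, 177, 243 and 233 in ESR1KO males. *Met* stood at 142, 147 and 165 CPM in WT females, 162, 139 and 167 in WT males, 122, 127, 123, 118 and 158 in ESR1KO females and 139, 154, 151 and 159 in ESR1KO males. For both genes the lowest mean was in ESR1KO females, whose *Insr* values were all below those of WT females, while 4 of their 5 *Met* values were below every value of the other groups. ESR1KO minus WT females was -0.24 for *Insr* (95% CI -0.50 to 0.01, adjusted p = 0.245) and -0.22 for *Met* (95% CI -0.45 to 0.01, adjusted p = 0.237). The intervals of the WT sex difference, -0.33 to 0.24 for *Insr* and -0.30 to 0.21 for *Met*, bound any such difference at this depth and number of mice.

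*Gcgr* (ENSMUSG00000025127, chr11:120530699-120538986, plus strand) had the highest level per kb of exon in WT females and in both ESR1KO groups. WT females had 237, 226 and 226 CPM and WT males 276, 268 and 243 CPM. ESR1KO females had 193, 218, 253, 293 and 276 CPM and ESR1KO males 245, 259, 289.7 and 272 CPM. The 3 WT females were below the 3 WT males, and the 2 lowest values over all libraries were those of ESR1KO females 1 and 2. The WT sex difference was -0.19 (95% CI -0.49 to 0.10, adjusted p = 0.532), and the genotype differences were 0.10 in females (95% CI -0.16 to 0.37, adjusted p = 0.659) and 0.022 in males (95% CI -0.25 to 0.30, adjusted p = 0.976).

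*Il1rap* (ENSMUSG00000022514, chr16:26581704-26730117, plus strand) was the only receptor of the 9 called higher in ESR1KO mice. WT females had 121, 140.0 and 142 CPM and WT males 187, 184 and 168 CPM. ESR1KO females had 249, 247, 184, 183 and 185 CPM and ESR1KO males 167, 188, 160.5 and 183 CPM. WT females were the low group, below every mouse of the other groups, and ESR1KO females 1 and 2 were the highest. ESR1KO females exceeded WT females by 1.56-fold (log2 fold change 0.64, SE 0.127, adjusted p = 0.00688), from 134 ± 11.2 CPM (SD, n = 3) to 209 ± 35.1 (SD, n = 5). Without ESR1KO females 1 and 2 the log2 fold change was 0.45 (adjusted p = 0.00888). The call ended without WT female 1 (adjusted p = 0.0544) and when only the females were fitted (0.0505). WT females against WT males gave -0.42 (SE 0.139), not called by edgeR (adjusted p = 0.108) but by DESeq2 (0.0413) and by edgeR when only the WT mice were fitted (0.0272), and the female minus the male genotype effect was 0.68 (SE 0.180, adjusted p = 0.0698; 0.0112 with DESeq2). Without ESR1KO females 1 and 2 both were called (adjusted p = 0.00706 and 0.0418). *Il1rap* shares 552 exon bases (4.86% of its exons) with the antisense gene *Gm20319*, whose counts came to 29.4% of those of *Il1rap*. The strand setting of the counting is not given in the sources used here, so the reads of the pair cannot be told apart where they overlap. *Gm20319* was also higher in ESR1KO than in WT females (0.43, adjusted p = 0.0240, lost without any 1 WT female or without ESR1KO female 2, at up to 0.125) and lower in WT females than in WT males (-0.50, adjusted p = 0.0145, lost without WT female 1 or 2 or WT male 1, at up to 0.0841), and with the counts of both genes summed the difference was 0.59 (adjusted p = 0.00946).

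Beside the ribosomal protein genes, *Il1rap* showed a like pattern. The 3 genes whose log2 CPM was closest to that of *Il1rap* among 11639 genes compared were *Rpl15* (r = 0.958), *Rps21* (0.956) and *Fis1* (0.956), over 15 libraries that share groups and depth. The sum of the ribosomal protein genes was 8854 to 9836 CPM in WT females, 10260.0 to 10940.0 in WT males, 10970.0 to 13590.0 in ESR1KO females and 10610.0 to 11810.0 in ESR1KO males, the same order as *Il1rap* in that WT females were lowest and ESR1KO females 1 and 2 highest. Its part in the *Il1rap* result was not tested.

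**Figure D3:**
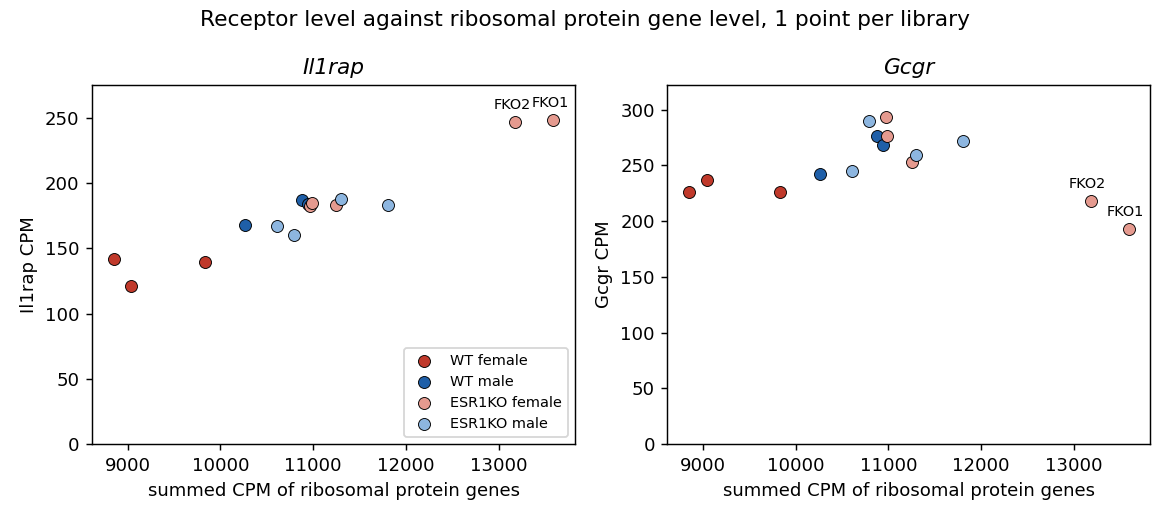
The left panel plots *Il1rap* and the right panel *Gcgr* (CPM, vertical axis from 0) against the summed CPM of 85 ribosomal protein genes (horizontal axis, linear, not from 0), with a point for each of the 15 libraries coloured by group. ESR1KO females 1 and 2 (labelled FKO1 and FKO2) lie at the right end of both panels, with the highest *Il1rap* values (249 and 247 CPM) and the lowest *Gcgr* values (193 and 218 CPM).

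The partner of IL1RAP, *Il1r1*, differed between the groups in another way. It stood at 40.9, 25.8 and 27.8 CPM in WT females and at 55.2, 83.2 and 65.4 CPM in WT males. ESR1KO females had 27.4, 21.0, 23.2, 28.6 and 34.9 CPM and ESR1KO males 21.97, 23.2, 24.5 and 27.9 CPM. WT males were above every other mouse, and the other groups overlapped. WT females were 2.15-fold below WT males (log2 fold change -1.11, SE 0.200, adjusted p = 0.00248) and ESR1KO males 2.78-fold below WT males (log2 fold change -1.48, SE 0.185, adjusted p = 0.000465). The female minus the male genotype effect was 1.26 (SE 0.259, adjusted p = 0.0150), a call that ended without WT female 2 or 3 or WT male 2 (0.0550, 0.0544 and 0.0541). *Il1rn*, which encodes the soluble antagonist of IL1R1, went the other way between WT sexes, with 3.11, 2.40 and 2.29 CPM in females and 0.766, 1.05 and 1.28 CPM in males (log2 fold change 1.32, SE 0.322, adjusted p = 0.0229); this call ended without WT female 1, WT male 1 or WT male 2 (0.0966, 0.122 and 0.0749). *Sigirr*, a receptor that inhibits interleukin 1 signalling, was lower in ESR1KO than in WT females (log2 fold change -0.53, SE 0.150, adjusted p = 0.0474), with 22.6, 22.8 and 21.5 CPM in WT and 10.03, 13.9, 18.0, 17.4 and 17.6 CPM in ESR1KO females. Its call was lost in 10 of 15 fits without 1 library (adjusted p up to 0.142) and without both ESR1KO females 1 and 2, whose values were the lowest (-0.34, adjusted p = 0.0541).

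**Figure D4:**
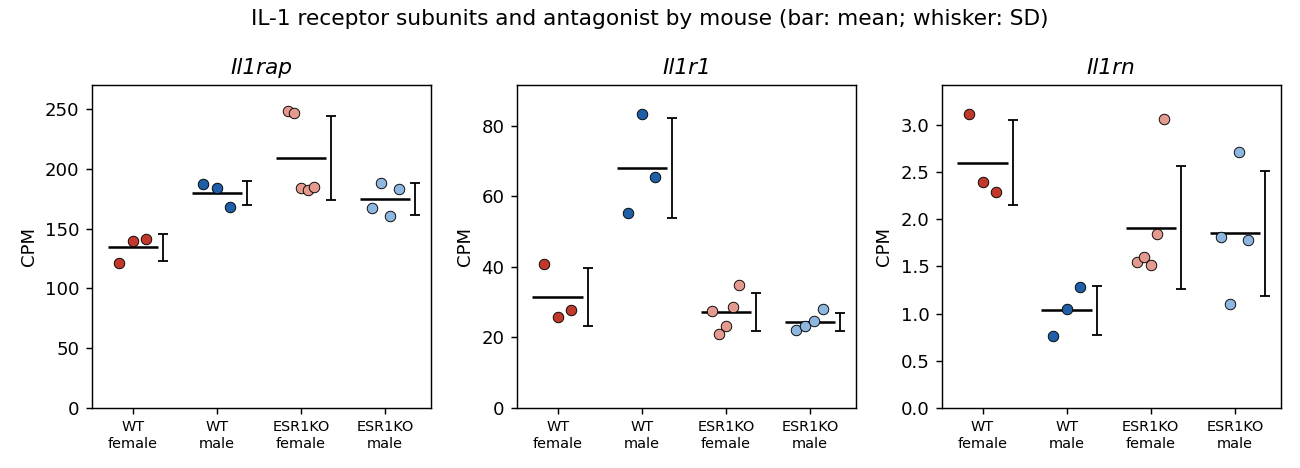
Each panel plots 1 gene in CPM (linear axis from 0) by group, with a point for each mouse, a bar at the mean and a whisker of 1 SD. *Il1rap* and *Il1r1* encode chains of the interleukin 1 receptor, and *Il1rn* its soluble antagonist. WT males stand out in *Il1r1* (55.2 to 83.2 CPM), WT females are lowest in *Il1rap* (121 to 142 CPM), and *Il1rn* is higher in WT females (2.29 to 3.11 CPM) than in WT males (0.766 to 1.28 CPM).

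Over the IL-1 receptor family (7 genes, 5 tested, with median log2 fold changes of 0.43 between WT sexes, -0.22 between genotypes in females and 0.27 in males), 1 was lower in WT females than in WT males and 1 in ESR1KO males than in WT males, *Il1r1* in both cases, and 1 was lower in ESR1KO than in WT females, *Sigirr*. Of 12 genes that carry the signal inside the cell (*Myd88*, the IRAK kinases, NF-kappaB subunits; medians 0.017, -0.12 and -0.030), 1 was called, *Ikbkb*, a kinase that releases NF-kappaB. It was lower in ESR1KO females (45.3, 47.6, 54.9, 43.3 and 56.1 CPM) than in WT females (65.2, 66.1 and 69.1 CPM; log2 fold change -0.43, SE 0.0906, adjusted p = 0.00981). The call held without ESR1KO females 1 and 2 (adjusted p = 0.0252) and ended without WT female 3 (0.0665) and when only the females were fitted (0.0878).

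For the genes around the receptors, list medians are given as log2 fold changes in the order WT females minus WT males, ESR1KO minus WT in females and ESR1KO minus WT in males, to be read beside the medians over all genes given above. Of 14 other chains of the family, 13 were tested and edgeR called 0 in any of the 5 contrasts (medians 0.17, -0.013 and 0.13), as did DESeq2, with 1 to 3 at an unadjusted p under 0.05 in each. Without ESR1KO females 1 and 2, edgeR called 2 of the 13 between WT sexes (1574 over all genes, against 860 with them) and 1 for the female minus the male effect (418 against 343). *Il6st*, encoding the gp130 chain, lay at 200.5 to 296 CPM over all libraries, lowest in ESR1KO females 1 and 2, and its genotype differences were -0.20 in females (adjusted p = 0.328) and -0.12 in males (0.782). *Ghr*, the growth hormone receptor, lay at 547 to 833 CPM, with -0.22 for WT females minus WT males (adjusted p = 0.438).

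Among 9 Janus kinases and STAT proteins (medians 0.069, -0.23 and -0.088), *Stat5a* was called, in females. It stood at 20.7, 14.3 and 16.8 CPM in WT females and at 5.75, 7.89, 9.75, 13.1 and 11.7 CPM in ESR1KO females, where every ESR1KO value was below every WT value and ESR1KO females 1 and 2 were lowest (log2 fold change -0.84, SE 0.220, adjusted p = 0.0357). Without both of them the difference was -0.58 (adjusted p = 0.101), and the call also ended without WT female 1, 2 or 3 (0.160, 0.0509 and 0.106), without ESR1KO female 2 (0.0825) and when only the females were fitted (0.101). *Stat5b*, its close relative and the main mediator of growth hormone in the liver, stood at 68.9, 70.2 and 68.8 CPM in WT and 38.3, 39.3, 55.1, 52.6 and 59.2 CPM in ESR1KO females and was not called (log2 fold change -0.50, SE 0.169, adjusted p = 0.0923). The *Stat5b* difference was called by edgeR with replicate number as a block (-0.65, adjusted p = 0.0360) and without ESR1KO female 5 (0.0482). Without ESR1KO females 1 and 2 it was -0.32 (adjusted p = 0.281). *Stat3*, used by IL6RA, LIFR and LEPR, lay at 98.7 to 118 CPM outside the ESR1KO females and at 58.9, 68.2, 94.5, 117 and 115 CPM in them (log2 fold change -0.28, SE 0.176, adjusted p = 0.371). *Jak2* lay at 29.6 to 36.5 CPM over all libraries.

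Of 12 feedback inhibitors tested (medians -0.051, 0.029 and -0.032), edgeR called 0 in every contrast, with 4 at an unadjusted p under 0.05 and 2 called by DESeq2 between WT sexes, 3 and 1 between genotypes in females, 0 and 0 in males, and at most 2 and 0 in the other contrasts. Over all genes these counts were 3060 and 1225 between WT sexes, 3973 and 1546 between genotypes in females and 2099 and 499 in males. Without ESR1KO females 1 and 2 edgeR called 3 between WT sexes, where calls over all genes rose from 860 to 1574. Values varied widely within a group: *Cish* ranged from 2.695 to 26.2 CPM within WT males and *Socs2* from 15.4 to 56.9 CPM within WT females. *Socs3* stood at 11.1, 5.05 and 5.61 CPM in WT females and 29.96, 12.4 and 11.3 CPM in WT males (-1.29, adjusted p = 0.322). Acute phase genes, which STAT3 activates in hepatocytes, gave 2 calls of 12 between WT sexes (medians -0.39, 0.20 and -0.43), *Saa1* and *Saa2*. In that contrast 9 had an unadjusted p under 0.05 and DESeq2 called 7. Over all 17655 genes edgeR called 860 there, 3060 had an unadjusted p under 0.05 and DESeq2 called 1225. *Saa1*, encoding serum amyloid A, stood at 9.01, 16.7 and 15.2 CPM in WT females and 74.1, 24.3 and 182 CPM in WT males (log2 fold change -2.78, SE 0.495, adjusted p = 0.00216). *Saa2* stood at 5.44, 10.1 and 10.4 and 25.3, 8.70 and 102 CPM (log2 fold change -2.40, SE 0.587, adjusted p = 0.0228), with overlapping groups and a difference of -0.98 (adjusted p = 0.196) without WT male 3. Between genotypes edgeR called 0 of the 12 in either sex. In males 9 had an unadjusted p under 0.05 and DESeq2 called 4, beside 2099 and 499 over all genes. In females these counts were 2 and 0, beside 3973 and 1546, and for the female minus the male effect 7 and 4, beside 2520 and 594.

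Of 22 ligands and soluble antagonists, 13 passed the filter (medians 0.19, 0.14 and 0.41), and *Prl*, *Lif*, *Lep*, *Il6*, *Osm*, *Gcg*, *Ins1*, *Ins2* and *Areg* did not. *Btc*, encoding betacellulin, a ligand of EGFR, was higher in every ESR1KO female (3.12, 3.45, 2.79, 3.74 and 3.18 CPM) than in any WT female (1.53, 1.38 and 1.42 CPM; log2 fold change 1.17, SE 0.156, adjusted p = 0.000203), and the call was kept in each of 15 fits without 1 library and without ESR1KO females 1 and 2 (1.16, adjusted p = 0.00145). *Hgf*, the ligand of MET, lay at 25.6 to 57.9 CPM, highest in ESR1KO female 1 (ESR1KO minus WT females, log2 fold change 0.14, SE 0.183, adjusted p = 0.680). *Il33*, a cytokine of the interleukin 1 family, was higher in WT females (2.49, 2.56 and 2.54 CPM) than in WT males (1.68, 1.56 and 1.68 CPM; log2 fold change 0.62, SE 0.167, adjusted p = 0.0403), a call lost in 10 of 15 fits without 1 library (adjusted p up to 0.133).

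For the receptor tyrosine kinases, none of 5 tested relatives out of 6 (medians 0.064, -0.28 and 0.096) was called by edgeR or DESeq2 in any contrast, with at most 1 at an unadjusted p under 0.05. *Erbb3*, which pairs with EGFR, stood at 230.0, 189 and 199 CPM in WT females and 77.9, 110.2, 142, 214 and 196 CPM in ESR1KO females (log2 fold change -0.48, SE 0.273, adjusted p = 0.313), lowest in ESR1KO females 1 and 2. Of 19 adaptors and inhibitors of EGFR and MET (medians -0.0062, -0.077 and -0.037), 1 was called between WT sexes and 1 between genotypes in females. *Dusp1*, a phosphatase of MAP kinases, was lower in WT females (19.8, 24.4 and 25.6 CPM) than in WT males (39.9, 67.0 and 54.4 CPM; log2 fold change -1.21, SE 0.323, adjusted p = 0.0395), a call lost in 7 of 15 fits without 1 library (adjusted p up to 0.157). *Spry4*, an inhibitor of signalling from receptor tyrosine kinases, was lower in ESR1KO females (5.87, 4.69, 7.48, 3.97 and 6.67 CPM) than in WT females (10.01, 11.2 and 23.2 CPM; log2 fold change -1.37, SE 0.256, adjusted p = 0.00468). Without WT female 3, the highest value, the difference in *Spry4* was -0.88 (adjusted p = 0.0511). Immediate early genes such as *Egr1* and *Fos*, which growth factors induce, gave 0 calls of 8 (medians -0.16, 0.063 and -0.054) by edgeR or DESeq2 in every contrast, with at most 1 at an unadjusted p under 0.05.

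Of 14 genes downstream of the insulin receptor (medians 0.072, -0.23 and -0.13), *Akt1* was called, lower in ESR1KO females (44.9, 43.5, 52.0, 49.8 and 54.2 CPM) than in WT females (64.3, 67.8 and 70.7 CPM; log2 fold change -0.47, SE 0.0940, adjusted p = 0.00756). It encodes a kinase activated by insulin, and its call held without ESR1KO females 1 and 2 (adjusted p = 0.0198) but not without WT female 3 (0.0563) or when only the females were fitted (0.0584). *Irs2*, an adaptor of INSR whose RNA insulin represses, stood at 49.4, 33.2 and 25.0 CPM in WT females and 13.99, 15.3, 15.8, 19.9 and 24.6 CPM in ESR1KO females, below every WT value, and was not called (log2 fold change -0.999, SE 0.338, adjusted p = 0.0934; 0.0475 when only the females were fitted). The *Irs2* difference was also called by edgeR with no filter (-0.97, adjusted p = 0.0236) and with replicate number as a block (-1.38, adjusted p = 0.0276). It was called in 0 of 15 fits without 1 library (adjusted p up to 0.344). Without ESR1KO females 1 and 2 the difference in *Irs2* was -0.83 (adjusted p = 0.273). *Irs1* lay at 28.9 to 70.9 CPM over all libraries. Among 12 genes of the glucagon and cyclic AMP pathway (medians -0.024, -0.16 and 0.049), *Pde4b*, which degrades cyclic AMP, was called in 3 contrasts. WT males had 17.7, 18.3 and 18.5 CPM, below every other mouse, against 35.3, 36.7 and 29.4 CPM in WT females (log2 fold change 0.89, SE 0.167, adjusted p = 0.00325) and 36.7, 37.5, 27.7 and 25.5 CPM in ESR1KO males (log2 fold change 0.81, SE 0.158, adjusted p = 0.0151), and the female minus the male genotype effect was -0.94 (adjusted p = 0.0281). The call between WT sexes was kept in each of 15 fits without 1 library, while that in males ended without WT male 1, 2 or 3 or ESR1KO male 1 (adjusted p up to 0.0709) and that of the difference between sexes in 7 of 15 fits (up to 0.0878). The other class B peptide hormone receptors gave 0 calls of 3 tested out of 6 (medians 0.23, -0.14 and 0.20) by edgeR or DESeq2, with at most 1 at an unadjusted p under 0.05.

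Genes that follow feeding and the time of day are given beside the receptors. Of 10 that respond to feeding and fasting (medians 0.050, -0.035 and 0.38), 1 was called in any contrast, *Pdk4*, a brake on glucose oxidation that fasting raises. It was higher in ESR1KO males (5.39, 2.50, 6.76 and 6.42 CPM) than in WT males (1.38, 2.05 and 2.09 CPM; log2 fold change 1.51, SE 0.297, adjusted p = 0.0156), a call that ended without WT male 1 or 3 or ESR1KO male 3 (0.0885, 0.0597 and 0.0526). Of 9 clock genes (medians 0.21, -0.29 and -0.039), 1 was called, *Per3*, lower in ESR1KO females (80.1, 81.5, 92.2, 80.1 and 94.6 CPM) than in WT females (121, 133 and 131 CPM; log2 fold change -0.59, SE 0.127, adjusted p = 0.0126), and not without WT female 2 or 3 (0.0622 and 0.0634). Their part in the receptor results was not tested.

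*Alb*, encoding albumin, was higher in WT females than in WT males (log2 fold change 0.66, SE 0.176, adjusted p = 0.0382), a call lost in 11 of 15 fits without 1 library (adjusted p up to 0.122). Of the 6 hepatocyte markers, 3 had an unadjusted p under 0.05 between WT sexes and DESeq2 called 3, beside 3060 and 1225 of 17655 genes in all. Among 6 cholangiocyte markers, *Epcam* was higher in WT females (log2 fold change 1.083, SE 0.220, adjusted p = 0.00657) and in ESR1KO males (log2 fold change 0.95, SE 0.209, adjusted p = 0.0300) than in WT males, *Sox9* was lower in WT females than in WT males (log2 fold change -1.03, SE 0.273, adjusted p = 0.0384), *Krt19* was higher in ESR1KO than in WT males (log2 fold change 1.23, SE 0.271, adjusted p = 0.0307) and *Spp1* in ESR1KO than in WT females (log2 fold change 0.60, SE 0.147, adjusted p = 0.0272). Of these, *Epcam* between WT sexes was kept in each of 15 fits without 1 library, and the others ended without at least 1 library (adjusted p up to 0.136 for *Epcam* in males, 0.201 for *Sox9*, 0.204 for *Krt19* and 0.0978 for *Spp1*, which also ended without both ESR1KO females 1 and 2, at 0.0579). *Vsig4*, a marker of Kupffer cells, was higher in ESR1KO females than in ESR1KO males (log2 fold change 0.61, SE 0.108, adjusted p = 0.0210), and not without ESR1KO male 1, 2 or 3 (0.0838, 0.0542 and 0.0981). All 6 Kupffer cell markers had higher fitted levels in ESR1KO females than in ESR1KO males (0.054 to 0.61, median 0.46), where 4 had an unadjusted p under 0.05 and DESeq2 called 4, beside 456 genes in all. No endothelial, stellate cell or lymphocyte marker was called by edgeR in any contrast, where at most 2 of 6 had an unadjusted p under 0.05 and DESeq2 called 1, an endothelial marker in ESR1KO against WT females. The part of cell composition in the receptor results was not tested.

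Leaving out ESR1KO females 1 and 2 changed the number of edgeR calls in further lists. Between WT sexes it went from 1 to 2 in the IL-1 receptor family, the adaptors and inhibitors of EGFR and MET and the hepatocyte markers, from 2 to 3 in the ligands and the acute phase genes, and from 0 to 1 in the insulin receptor transducers. Between genotypes in females it went from 0 to 1 in the glucagon receptor transducers and the stellate cell markers, and from 1 to 0 in the cholangiocyte markers, the Janus kinases and STAT proteins and the IL-1 receptor family. Between genotypes in males it went from 0 to 2 in the ligands and from 0 to 1 in the stellate cell markers, and between ESR1KO sexes from 1 to 2 in the Kupffer cell markers. For the female minus the male effect it went from 0 to 1 in the hepatocyte markers and from 1 to 0 in the cholangiocyte markers. The other lists had the same numbers apart from the class I chains and feedback inhibitors, given above.

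On a scale comparable between genes, CPM per kb of exon, *Gcgr*, *Lifr* and *Egfr* were the most abundant receptors in every group. In WT females *Gcgr* stood at 87.6 ± 2.28, *Lifr* at 83.3 ± 10.04 and *Egfr* at 74.7 ± 3.29 CPM per kb (SD, n = 3). In WT males *Egfr* was first at 159 ± 50.5 CPM per kb (SD, n = 3), ahead of *Gcgr* at 100.1 ± 6.65. *Prlr* ranked 4 of 9 in WT females at 20.4 ± 2.86 and 8 of 9 in WT males at 4.02 ± 1.55 CPM per kb, and it stood at 10.8 ± 2.90 (n = 5) in ESR1KO females and 5.21 ± 0.999 (n = 4) in ESR1KO males. *Il6ra* and *Lepr* were low in each group, at 6.21 ± 1.25 and 1.87 ± 0.640 CPM per kb in WT females. These means rank the receptors by RNA per exon length and do not tell how much receptor protein is at the cell surface.

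The genes most like each called receptor over the 15 libraries differed between receptors. By Pearson's r of log2 CPM among 11639 genes, *Prlr* was closest to *Fam84b* (0.956), *Fut8* (0.955) and *Slc22a26* (0.940). *Lifr* was closest to *Irf5* (0.881), *Prdm4* (0.871) and *Ndfip1* (0.864), and *Il6ra* to *Rhbdd2* (0.911), *Nfix* (0.884) and *Klf13* (0.879). *Egfr* was closest to *Rab3gap1* (0.841), *Klhl2* (0.819) and *Maml3* (0.819). No receptor was among the 3 genes nearest to another. Among the receptors themselves, deviations from the group means went furthest together for *Insr* and *Gcgr* (r = 0.548) and furthest apart for *Gcgr* and *Il1rap* (-0.724) and for *Insr* and *Il1rap* (-0.712). These points share libraries, depth and groups, and ESR1KO females 1 and 2 hold the lowest *Insr* and *Gcgr* values and the highest *Il1rap* values.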

How the data were processed

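RNA was sequenced from 15 whole livers (ribosomal RNA-depleted, paired-end libraries), with a second run for libraries with few reads. The authors deposited unnormalized counts per gene, whole numbers for 55573 genes. The submitters' processing notes name Trimmomatic 0.36, STAR, HTSeq and GRCm38; the release of the annotation, whether counting used strand and how reads with several matches were handled are not given in the sources used here. The 9 receptors, the gene lists and the alternatives were chosen with earlier results of these data known.

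Genes were filtered with filterByExpr, which left 17655, scaled by TMM and fitted in 1 edgeR (4.0.16, R 4.3.3) quasi-likelihood model over the 15 libraries with a mean per group. The sexes were contrasted within each genotype (females minus males) and the genotypes within each sex (ESR1KO minus WT), and the female genotype effect was set against the male one. P-values were adjusted by the Benjamini-Hochberg method over all genes tested, and calls were made below 0.05 whatever the fold change. CPM values were scaled with TMM. Log2 CPM uses a prior count of 2, and levels per kb divide by merged exon length. Likeness between genes was Pearson's r over genes whose log2 CPM averaged 1 or more. From each list, up to 4 members called in any contrast and a fixed set of defining members were named. The lists were other class I receptor chains, receptor tyrosine kinases, the IL-1 receptor family, class B receptors, ligands, transducers of each receptor type, feedback inhibitors, feeding, acute phase, immediate early and clock genes, the *Leprot* pair, and markers of 6 cell types. Gene positions come from a GRCm38 annotation and promoter windows from RefSeq. No pair of libraries of a group agreed within sampling noise (lowest chi-square per gene 23.52). Replicates are separate mice. Alternatives were total-count scaling, DESeq2 (1.42.0) size factors, the DESeq2 test, other filters, a minimum log2 fold change of 1.5, only the groups compared, a replicate block and leaving out each library. Scripts were tested on simulated data.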

Additional observations from a re-analysis of the deposited data

Results flagged for a closer look

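Among 18 groups of 4 or 5 mice examined (9 receptors in ESR1KO females and ESR1KO males), 3 held a mouse far from the rest, where chance alone marks about 1 in 20 groups. *Il6ra* was at 47.4 CPM in ESR1KO male 4 and next highest at 28.3 CPM in that group, a gap of 0.871 of the group's range. In the same mouse *Lepr* was at 24.2 CPM, with the next highest value at 10.5 CPM (a gap of 0.860 of the range). *Met* was at 158 CPM in ESR1KO female 5, with the next highest at 127 CPM (0.765 of the range).

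Among the genes around the receptors, 3 had a genotype effect that differed between the sexes (edgeR, adjusted over all genes tested): *Il1r1* with females minus males at 1.26 (adjusted p = 0.0150), *Pde4b* at -0.94 (0.0281) and *Epcam* at -1.17 (0.0390). Over all 17655 genes tested, edgeR called 1.02% higher and 0.923% lower for this effect, so the count is not a result about these lists. For *Epcam* the call ended without ESR1KO females 1 and 2 (0.0619) and in 12 of 15 fits without 1 library.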

How the results depend on the processing

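Limits: groups of 3 to 5 mice leave the call of *Egfr* between WT sexes near the threshold. The same holds for the calls of *Il6ra*, *Lifr* and *Prlr* between genotypes. The edgeR call of *Il1rap* between genotypes ended without WT female 1 (adjusted p = 0.0544) and with only the females fitted (0.0505). *Lepr* had the widest interval of the receptors in each contrast. Over the 45 receptor differences (9 receptors, 5 contrasts), DESeq2 size factors and the 1 CPM filter changed no direction and no call. The DESeq2 test added 5 calls and ended none. Alternatives chosen after seeing the data were leaving out ESR1KO females 1 and 2 and summing *Il1rap* with *Gm20319*. The causes of the changes below were not tested.

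The count of receptors called between ESR1KO females and males, 0, was 1 with total-count scaling, with DESeq2 and with no filter. For the female minus the male genotype effect, 0 became 1 with total-count scaling and 2 with DESeq2, with no filter and without ESR1KO females 1 and 2. With a minimum log2 fold change of 1.5 the counts were 1 between WT sexes, 0 between genotypes in females and 0 in males, and with only the groups compared they were 3 between WT sexes (*Il1rap* added), 2 between genotypes in females (*Il1rap* lost) and 0 in males. Without 1 library at a time the counts ranged from 1 to 2 between WT sexes, 0 to 1 between ESR1KO sexes, 0 to 3 between genotypes in females, 0 to 1 in males and 0 to 1 for the difference between them. Of these settings, calls over all genes were counted only with DESeq2 and without ESR1KO females 1 and 2. The other counts track which receptor calls moved and have no share over all genes beside them.

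The replicate numbers did not pair the libraries: correlations of same-numbered libraries were -0.195 to 0.14 over 18 pairs, and 1 of 12 libraries correlated best with its own number. With the replicate block, receptor counts were 1 between WT sexes (*Egfr* adjusted p = 0.0658) and 0 between genotypes in males (*Lifr* 0.0742). Calls over all genes were not counted in this setting either. The sign turned for *Lepr* between ESR1KO sexes (0.13) and between genotypes in females (0.012), and for *Gcgr* between genotypes in females (-0.011) and males (-0.038).

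Other reversals were of differences not called. Total-count scaling gave 0.0029 for *Insr* and 0.0018 for *Met* between WT sexes and 0.021 for *Il6ra* between ESR1KO sexes, no filter gave -0.0088 for *Gcgr* between genotypes in males, and leaving out ESR1KO females 1 and 2 gave 0.042 for *Gcgr* between ESR1KO sexes. Without 1 library, differences between WT sexes ranged from -0.087 to 0.41 (*Il6ra*), -0.11 to 0.038 (*Insr*) and -0.12 to 0.0062 (*Met*). Those between ESR1KO sexes ranged from -0.26 to 0.0003 (*Egfr*), -0.14 to 0.23 (*Il6ra*) and -0.40 to 0.37 (*Lepr*), and that of *Lepr* between genotypes in females from -0.38 to 0.16. Between genotypes in males they ranged from -0.11 to 0.049 (*Insr*), -0.12 to 0.0038 (*Met*) and -0.032 to 0.060 (*Gcgr*), and *Il6ra* in females minus males from -0.44 to 0.11.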
